A study of Mus musculus with 39 samples.

Results

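Chemokine ligands are the small secreted or membrane-bound proteins that guide white blood cells through tissue. They were taken here as the genes whose symbol begins with Ccl or Cxcl and a number, together with Cx3cl1 and Xcl1, if they had a value above 0 in at least 4 of 16 brown fat RNA libraries. Of 36 genes with such a symbol among 24116 in the deposited table, 31 were members, and 4 of 3022 BCL6 binding sites had one of them as their nearest gene.

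Chemokine ligands act through G protein-coupled receptors on leukocytes, and the spacing of their first cysteines divides them into the CC, CXC, CX3C and C families. Some are switched on by inflammation through NF-κB or interferons, while others are made constantly and keep cells in place. In fat they are known for drawing monocytes, macrophages and lymphocytes into the tissue, and they are made by adipocytes, stromal and endothelial cells and by the immune cells themselves.

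The RNA came from interscapular brown fat, a depot that burns fuel to make heat, taken from male mice of strain C57BL/6J in which both copies of Bcl6 are flanked by loxP sites (BCL6ff), a feature all groups share. Bcl6 encodes a transcriptional repressor that is best known from lymphocytes. The groups were UCP1Cre+ mice at 30 °C, Cre- mice at 30 °C, UCP1Cre+ mice at 22 °C and Cre- mice at 22 °C, with 4 libraries in each and with standard chow. Ages are not given in the labels. The UCP1Cre+ libraries are called Cre-labelled here and the Cre- libraries controls. Cre driven by the Ucp1 promoter acts in brown adipocytes, and the whole tissue also holds blood, vessel and stromal cells that the promoter does not target. Nothing in the labels says whether libraries are from different animals, and p-values therefore measure the spread between these samples, which may be technical. BCL6 binding sites came from 1 chromatin immunoprecipitation of control brown fat at 30 °C.

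Values are normalised counts that the authors scaled between libraries. They are not divided by transcript length, so levels are compared between libraries and not between genes. In the shallowest library, control 1 at 22 °C, the smallest common step, about the value of 1 read, was 3.93, and in the deepest, control 4 at 30 °C, it was 0.52. The 2 libraries with the fewest genes above 0 were control 1 and Cre-labelled 2 at 22 °C, with 14311 and 15226. Bcl6 was higher, not lower, in the Cre-labelled libraries. It read 3269 to 5159 against 1020 to 2340 in controls at 30 °C. At 22 °C it read 2671 to 3927 against 764 to 1838 in controls. These values are totals per gene, so they do not show whether the stretch between the loxP sites was lost. "Cre-labelled" therefore names the label only, and deletion of Bcl6 was not tested. Summed skeletal muscle markers varied among libraries from 213 to 27700 at 30 °C in the Cre-labelled group, against 8685 to 16260 in controls, and at 22 °C from 248 to 32770 in the Cre-labelled group, against 232 to 3949 in controls. A fit with muscle as a covariate was among the alternatives. The brown adipocyte marker Ucp1 was present in every library, at 3761 or more.

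Of the 31 members, 19 averaged 10 or more across the 16 libraries and entered the test, and 17 were above 0 in every library. The 12 below that mean were Ccl3, Ccl4, Ccl12, Ccl17, Ccl19, Ccl24, Cxcl2, Cxcl3, Cxcl5, Cxcl11, Cxcl13 and Xcl1. The nearest to the edge of the rule was Cxcl3, above 0 in exactly 4 libraries, while Ccl1, above 0 in 3, was left out along with Cxcl15, Ccl20, Ccl26 and Cxcl17. The genes lie mostly in clusters. On chromosome 11 the CC ligands Ccl2, Ccl7, Ccl11, Ccl12 and Ccl8 sit in a row from position 82035577 to 82116799 (RefSeq, GRCm38.p6, the build also called mm10), and Ccl5, Ccl9, Ccl6, Ccl3 and Ccl4 follow from 83525778 to 83664683. On chromosome 5 lie the neutrophil attractants Cxcl5, Cxcl3, Cxcl1 and Cxcl2 and, further along, Cxcl9, Cxcl10 and Cxcl11. Ccl22, Cx3cl1 and Ccl17 are neighbours on chromosome 8.

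Differences are on the scale of log2(value + 1), which understates the change of low genes, and carry the standard error of limma's moderated linear model, which was fitted to all genes that passed the same filter. The Benjamini-Hochberg adjustment ran over those 13176 genes, and a gene is said to have risen or fallen where the adjusted p was under 0.05. Between Cre-labelled and control fat at 30 °C, 3 of the 19 ligands tested rose (Cxcl9, Ccl6 and Ccl9) and 0 fell. In that comparison 5.65% of all genes tested rose and 6.85% fell. At 22 °C, 2 ligands rose (Cxcl9 and Cxcl16) and 0 fell, against 5.51% of all genes rising and 4.69% falling. The median difference of the ligands was 0.57 at 30 °C and 0.68 at 22 °C, beside 0.006 and -0.004 over all genes. At an unadjusted p under 0.05, 7 ligands were higher and 2 lower at 30 °C, where 12.3% of all genes were higher and 13.5% lower, and 7 were higher and 3 lower at 22 °C, where the shares were 13.2% and 12.3%. The counts moved with the 2 sparsest libraries. At 30 °C limma called 6 ligands without control library 1 at 22 °C, 5 without Cre-labelled library 2 at 22 °C, and 8 without both, when 7 rose and Cx3cl1 fell. At 22 °C it called 5 without control library 1, 2 without Cre-labelled library 2, which left the count unchanged, and 5 without both. It called 1, Cxcl9, without Cre-labelled library 3 at 22 °C or without control library 4 at 30 °C. Calls over all genes also grew when both sparse libraries were left out. At 30 °C 1329 genes then rose and 1466 fell, against 745 and 902 in the main fit. At 22 °C 1147 rose and 1197 fell, against 726 and 618.

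More of the ligands passed the test between temperatures. Between 30 °C and 22 °C, 12 of the 19 rose and 1 fell in Cre-labelled fat, where 15.0% of all genes rose and 17.7% fell. In control fat 11 rose and 3 fell, against 22.9% of all genes rising and 22.7% falling. The median difference of the ligands was 0.96 in Cre-labelled and 1.05 in control fat, beside 0.023 and 0.038 over all genes. These counts describe the tested members only: Ccl2, Ccl7, Ccl8, Ccl22 and Cxcl1 had means under 10 in both 22 °C groups and passed the filter through their 30 °C values, so a difference was built into their selection. Among the other 14, 7 rose and 1 fell in Cre-labelled fat, and 6 rose and 3 fell in controls. For the interaction, which is the genotype difference at 30 °C minus that at 22 °C, limma called 0 ligands in either direction, where 0.175% of all genes were positive and 0.266% negative at the same threshold. At an unadjusted p under 0.05, 4 ligands were positive and 2 negative for it, beside 4.98% and 5.55% of all genes.

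**Figure D1:**
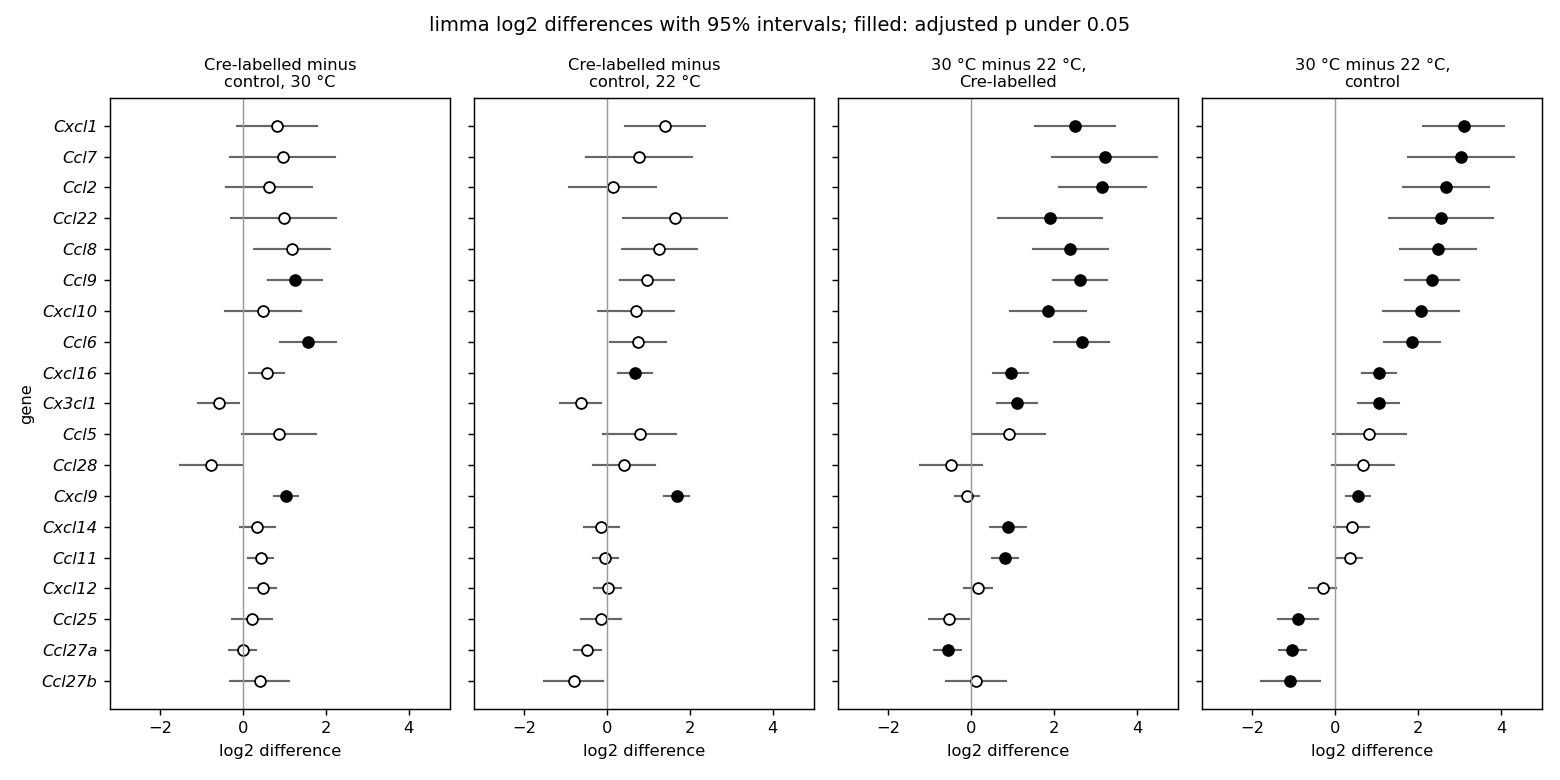
Log2 differences with 95% intervals (x axis, log2 of normalised count + 1) for the 19 chemokine ligands tested (y axis), in 4 panels for Cre-labelled minus control at 30 °C and at 22 °C and for 30 °C minus 22 °C in Cre-labelled and in control fat. Filled points passed an adjusted p of 0.05, and the genotype panels hold 3 and 2 of them, the temperature panels 13 and 14.

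Cxcl9 had the smallest adjusted p between genotypes of the 19 ligands tested, at both temperatures. It encodes an interferon gamma-induced attractant of T and NK cells that acts through CXCR3. It read 1342, 1012, 1223 and 984 normalised counts in the 4 Cre-labelled libraries at 30 °C, against 565, 500.5, 669.8 and 494 in controls. The values at 22 °C were 1314, 1439, 1026 and 1113 in Cre-labelled and 440.3, 373, 361 and 345 in control libraries. At each temperature every Cre-labelled library lay above every control library. The means were 1140.3 ± 172 in Cre-labelled and 557 ± 81.6 in control fat at 30 °C, and 1223 ± 188 in Cre-labelled and 379.9 ± 41.9 in control fat at 22 °C (SD, n = 4 each), that is 2.05-fold at 30 °C and 3.22-fold at 22 °C. The log2 difference was 1.03 at 30 °C (SE 0.14, limma adjusted p = 0.00012) and 1.68 at 22 °C (SE 0.14, limma adjusted p = 1.08e-06).

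With temperature, Cxcl9 rose in controls, where 30 °C exceeded 22 °C by 0.55 (SE 0.14, limma adjusted p = 0.00437). In Cre-labelled fat the difference was -0.10 with a 95% interval of -0.39 to 0.19, and limma's adjusted p was 0.615. The interaction was -0.65 (SE 0.19, limma adjusted p = 0.205, unadjusted 0.00412), so the temperature effects were not shown to differ between genotypes after adjustment. Under quantile normalization the small temperature difference in Cre-labelled fat changed sign, to 0.036.

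**Figure D2:**
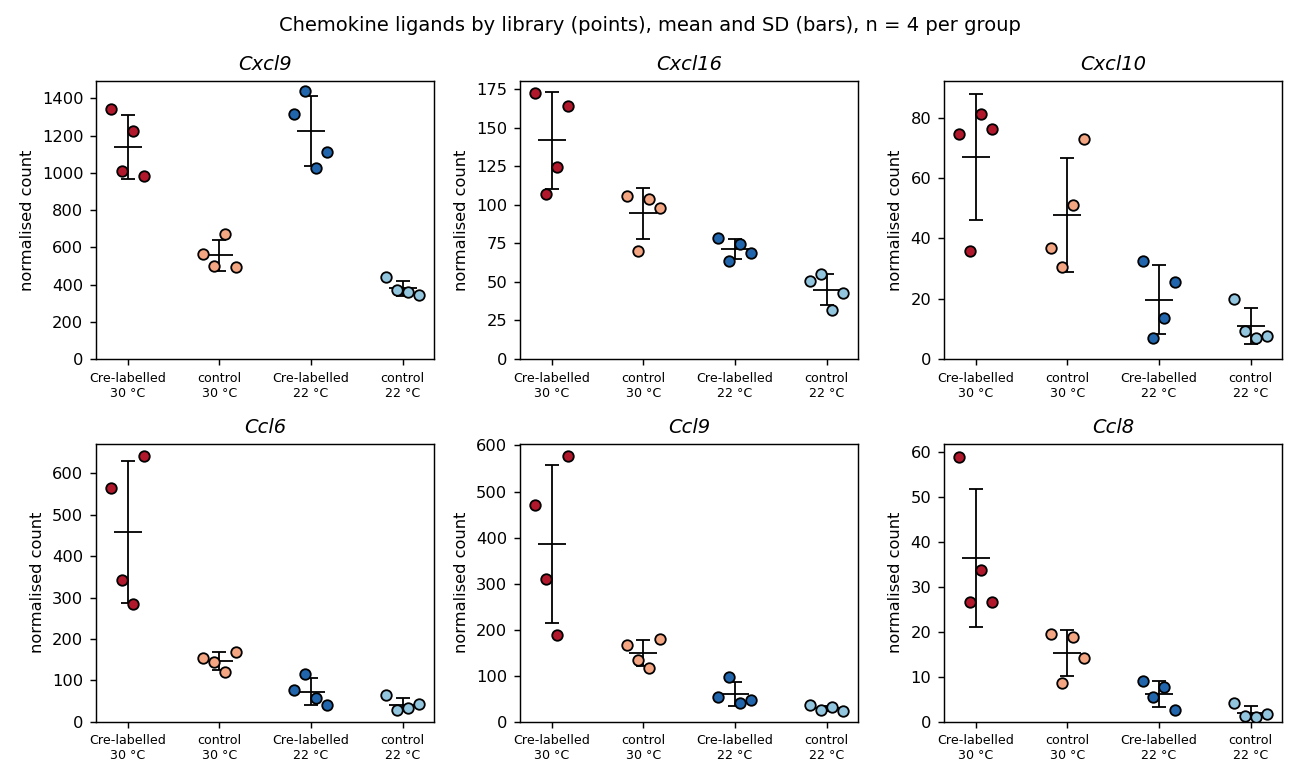
Normalised counts (y axis, linear from 0) of Cxcl9, Cxcl16, Cxcl10, Ccl6, Ccl9 and Ccl8 in each library (points) of the 4 groups (x axis), with group means and SD as bars. Cre-labelled Cxcl9 values, 984 to 1439, lie above all control values, 345 to 670, and the other 5 ligands have higher means at 30 °C than at 22 °C in each genotype.

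A BCL6 site was placed inside Cxcl9 (chr5:92321331-92328079, minus strand). The peak covers chr5:92327346-92327526 (mm10), lies in intron 1 of 3 and is centred 643 bases downstream of the transcription start. The authors' score for it, on a scale that no header or label states, was 10.5 and ranked it 340 of 3022, against a median of 5.18 over all peaks. The site was called in control fat from tissue that contains every cell type, so the list does not say in which cells it is bound.

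**Figure D3:**
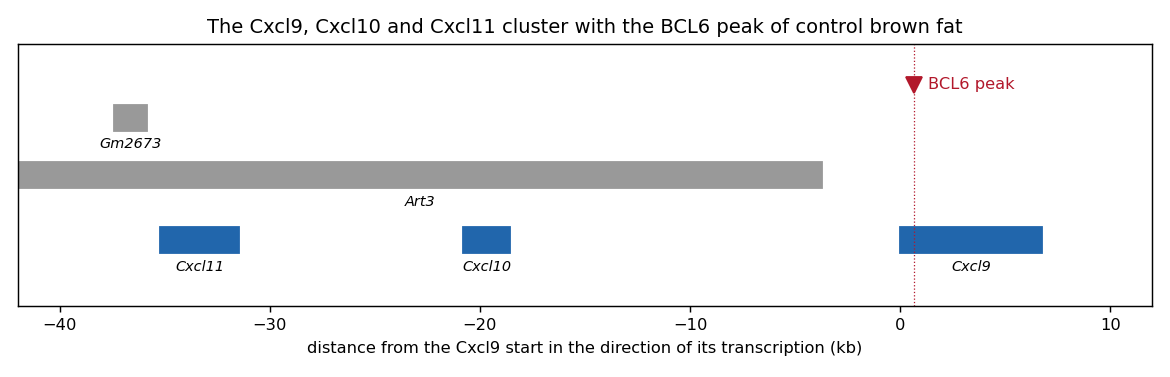
Map of the Cxcl9 cluster on chromosome 5 (x axis, kb from the Cxcl9 start in the direction of its transcription; bars are genes, rows only separate overlapping genes). The BCL6 peak (triangle, 0.64 kb) lies within Cxcl9, and Cxcl10 and Cxcl11 lie 18.56 kb and more upstream, inside the span of Art3.

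The 250 bases before the transcription start are shown for the 3 ligands with the smallest adjusted p between genotypes at 30 °C (RefSeq, GRCm38.p6, 5′ to 3′). Capitals mark in Cxcl9 an inverted repeat with arms of 6 bases, a feature that 39.05% of all 32851 such windows hold, and in Ccl6 and Ccl9 the longest direct repeat, of 14 and 8 bases, with repeats of at least that length in 3.3% and 63.9% of windows.
Cxcl9 (chr5:92328080-92328329, minus strand): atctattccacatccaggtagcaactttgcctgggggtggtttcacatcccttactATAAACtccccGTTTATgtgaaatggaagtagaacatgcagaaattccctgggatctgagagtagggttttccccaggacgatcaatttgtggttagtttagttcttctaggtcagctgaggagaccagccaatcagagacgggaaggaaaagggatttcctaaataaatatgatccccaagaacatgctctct
Ccl6 (chr11:83593088-83593337, minus strand): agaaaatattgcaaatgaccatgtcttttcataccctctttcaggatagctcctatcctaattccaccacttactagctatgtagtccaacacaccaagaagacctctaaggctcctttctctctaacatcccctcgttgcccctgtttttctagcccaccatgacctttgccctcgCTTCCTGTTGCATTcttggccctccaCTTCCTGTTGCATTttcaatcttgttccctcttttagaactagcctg
Ccl9 (chr11:83578637-83578886, minus strand): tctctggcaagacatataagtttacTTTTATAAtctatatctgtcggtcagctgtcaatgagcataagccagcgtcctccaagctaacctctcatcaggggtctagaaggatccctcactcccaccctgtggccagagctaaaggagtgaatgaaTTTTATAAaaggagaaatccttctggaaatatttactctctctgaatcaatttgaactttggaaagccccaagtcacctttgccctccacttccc
In none of the 3 windows did GGANNTTCC, a form of the NF-κB site, or TTCCNNGAA, a form shared by STAT and BCL6 sites, occur on either strand. The intronic BCL6 peak of Cxcl9 lies downstream of the window shown.

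Cxcl10, the neighbour of Cxcl9 that shares its receptor, passed the test between temperatures and not between genotypes in the main fit. It read 74.7, 35.9, 81.1 and 76.3 in Cre-labelled libraries at 30 °C, against 36.7, 30.5, 51.0 and 73.0 in controls. At 22 °C the Cre-labelled values were 32.4, 7.12, 13.5 and 25.6, against 19.8, 9.37, 7.03 and 7.60 in controls. The genotypes overlapped at both temperatures, whereas the temperatures did not overlap within either genotype. The genotype difference was 0.49 at 30 °C and 0.70 at 22 °C (limma adjusted p = 0.535 and 0.337). At 22 °C it passed the threshold without the 2 sparsest libraries. Between temperatures Cxcl10 rose by 1.85 in Cre-labelled fat (SE 0.44, limma adjusted p = 0.0038) and by 2.06 in controls (SE 0.44, limma adjusted p = 0.00124). Cxcl10 and Cxcl11 lie inside the span of Art3, and the sources used here do not state whether counting used strand. Cxcl11, annotated as a transcribed pseudogene in the RefSeq table, stayed below the filter, with values from 0 to 6.15 in 12 libraries above 0.

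The wider interferon response moved in the same samples. Of 20 interferon response genes, 4 rose in Cre-labelled fat at 30 °C and 9 at 22 °C, with 0 falling. The shares of all genes that rose were 5.65% and 5.51%. Gbp3, a guanylate-binding GTPase, differed by 0.90 at 30 °C and 1.11 at 22 °C (limma adjusted p = 0.000356 and 6.13e-05). Oas1a, an antiviral RNA sensor, differed by 0.99 at 30 °C, and Gbp2 by 0.57 (limma adjusted p = 0.00272 and 0.0106). Summed over the list, levels ran from 8509 to 11970 in Cre-labelled and 7044 to 8981 in control fat at 30 °C, and from 6065 to 9283 in Cre-labelled and 5225 to 5792 in control fat at 22 °C. The groups' ranges overlapped at 30 °C and not at 22 °C. Cxcr3, the receptor of Cxcl9 and Cxcl10, differed by 0.56 at 30 °C and 1.30 at 22 °C (limma adjusted p = 0.328 and 0.0233). Of 9 T and NK cell markers tested, 1 rose in Cre-labelled fat at each temperature, beside the same shares of all genes. They were Nkg7 at 30 °C by 1.51 and Cd4 at 22 °C by 0.96 (limma adjusted p = 0.0103 and 0.0386). The part of these cells in the Cxcl9 difference was not tested. In bulk tissue, fewer or more cells of a type and less or more RNA per cell cannot be told apart.

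Ccl6 and Ccl9, neighbouring CC ligands of mice that act through CCR1 and are made by macrophages and other myeloid cells, had the other genotype differences at 30 °C. Ccl6 read 565, 343, 283 and 641 in Cre-labelled fat at 30 °C, against 154, 144, 120.2 and 169 in controls. Its values at 22 °C were 76.0, 116, 57.3 and 40.4 in Cre-labelled and 63.5, 27.7, 33.0 and 42.3 in control libraries. The genotypes were separate at 30 °C and overlapped at 22 °C. The means at 30 °C were 458 ± 172 in Cre-labelled and 147 ± 20.6 in control fat (SD, n = 4 each), 3.12-fold and 1.57 in log2 units (SE 0.32, limma adjusted p = 0.00375). At 22 °C the log2 difference was 0.75 (SE 0.32, limma adjusted p = 0.146).

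Ccl9 read 471, 309.6, 189 and 576 in Cre-labelled fat at 30 °C, against 167, 135, 117 and 179.7 in controls. The 22 °C values were 54.3, 97.1, 41.5 and 47.5 in Cre-labelled and 35.7, 25.0, 31.0 and 23.7 in control libraries. Groups did not overlap in either pair. The difference was 1.26 at 30 °C (SE 0.31, limma adjusted p = 0.012) and 0.97 at 22 °C (SE 0.31, limma adjusted p = 0.0527), the second missing the threshold. With the muscle covariate both Ccl6 and Ccl9 passed it at 22 °C, and Ccl9 also did without control library 1 at 22 °C and without Cre-labelled library 3 or 4 at 30 °C. With temperature Ccl6 rose by 2.67 in Cre-labelled fat and 1.85 in controls, and Ccl9 by 2.62 and 2.33, with limma adjusted p at most 0.000241.

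Of 15 macrophage markers, 12 rose in Cre-labelled fat at 30 °C and 0 fell, and 7 rose and 1 fell at 22 °C. Over all genes, 5.65% rose and 6.85% fell at 30 °C, and 5.51% rose and 4.69% fell at 22 °C. Cd68, a lysosomal protein of macrophages, differed by 1.71 at 30 °C and 0.89 at 22 °C (limma adjusted p = 0.00122 and 0.07). C1qb, a complement subunit, differed by 1.18 at 30 °C and Mpeg1, a pore-forming protein of phagocytes, by 1.73 (limma adjusted p = 0.000706 and 0.000894). Cd14, a co-receptor for bacterial lipopolysaccharide named after its values were seen, was the marker that fell at 22 °C, where it averaged 56.5 ± 8.89 in Cre-labelled and 128 ± 8.36 in control fat (SD, n = 4 each), a log2 difference of -1.18 (limma adjusted p = 0.00112). At 30 °C its difference was 0.31 (limma adjusted p = 0.361), and it was the list's 1 call in the interaction, at 1.48 (limma adjusted p = 0.0256). The summed macrophage markers ran from 6762 to 17390 in Cre-labelled fat and 3964 to 4953 in controls at 30 °C, and from 2562 to 3391 in Cre-labelled fat and 1514 to 2389 in controls at 22 °C. Between temperatures 14 markers rose in Cre-labelled fat and 13 in controls, beside 15.0% and 22.9% of all genes. The part of macrophage number in Ccl6 and Ccl9 was not tested.

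Cxcl16 and Cx3cl1 are the membrane-anchored ligands, which tether cells through CXCR6 and CX3CR1 and are cut loose by ADAM10 and other proteases. Cxcl16 read 172, 107, 124 and 164 in Cre-labelled fat at 30 °C, against 106, 69.9, 104 and 98.0 in controls. At 22 °C the values were 78.4, 63.7, 74.7 and 68.4 in Cre-labelled and 50.5, 54.9, 31.9 and 42.9 in control libraries. No overlap occurred within either pair. At 22 °C the difference was 0.68 (SE 0.20, limma adjusted p = 0.0401), and at 30 °C it was 0.57 (SE 0.20, limma adjusted p = 0.0692). The call at 22 °C was lost in 9 of 28 alternatives, with adjusted p from 0.0215 to 0.144. Among these were the fits without control library 3 or 4, Cre-labelled library 1, 3 or 4 at 22 °C, or control library 4 at 30 °C.

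Cx3cl1 averaged 93.4 ± 9.53 in Cre-labelled and 144 ± 43.1 in control fat at 30 °C, and 43.3 ± 8.18 in Cre-labelled and 69.6 ± 23.4 in control fat at 22 °C (SD, n = 4 each). Single libraries read 102, 88.5, 82.5 and 101 in Cre-labelled fat at 30 °C, against 134, 109, 127 and 207 in controls. At 22 °C they read 39.2, 33.9, 51.2 and 49.0 in Cre-labelled fat, against 101, 60.4, 46.2 and 70.4 in controls. The genotype difference was -0.58 at 30 °C (95% interval -1.07 to -0.09, limma adjusted p = 0.116) and -0.63 at 22 °C (95% interval -1.12 to -0.14, limma adjusted p = 0.0922). The genotypes did not overlap at 30 °C and overlapped at 22 °C, and the difference at 30 °C passed the threshold under quantile normalization and without the 2 sparsest libraries. Both membrane ligands rose with temperature, Cxcl16 by 0.96 and Cx3cl1 by 1.10 in Cre-labelled fat and by 1.06 and 1.05 in controls (limma adjusted p at most 0.00173). Of 7 chemokine-cleaving proteases, 1 rose in Cre-labelled fat at 30 °C, where 5.65% of all genes rose. This was the macrophage elastase Mmp12, by 2.20 (limma adjusted p = 0.028). Mmp12 read 2882, 1648, 190 and 3978 in Cre-labelled fat at 30 °C, against 420, 213, 362 and 249 in controls. Cre-labelled library 3 lay below every control library, so the genotypes overlapped. With temperature 4 proteases rose in Cre-labelled fat and 5 in controls, beside 15.0% and 22.9% of all genes. Adam10 rose by 0.49 in Cre-labelled fat and 0.44 in controls (limma adjusted p = 0.00179 and 0.00259).

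The monocyte attractants Ccl2 and Ccl7, which act through CCR2, were among the members that passed the filter through their 30 °C values. Ccl2 read 55.0, 45.9, 38.8 and 102 in Cre-labelled fat at 30 °C and 6.49, 7.06, 3.48 and 5.21 at 22 °C. In controls it read 29.4, 23.6, 24.6 and 98.4 at 30 °C, against 12.0, 5.34, 4.10 and 1.73 at 22 °C. The temperatures did not overlap, and the genotypes did. Ccl2 rose by 3.16 in Cre-labelled fat (SE 0.50, limma adjusted p = 0.000192) and by 2.67 in controls (SE 0.50, limma adjusted p = 0.000448), while the genotype difference was 0.63 at 30 °C and 0.14 at 22 °C (limma adjusted p = 0.471 and 0.894). Control library 4 at 30 °C stood at 98.4 for Ccl2 and 72.2 for Ccl7.

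Ccl7 read 57.3, 33.9, 45.8 and 62.9 in Cre-labelled fat at 30 °C and 3.98, 3.64, 3.55 and 6.58 at 22 °C. In controls the values were 23.4, 9.66, 21.6 and 72.2 at 30 °C and 8.07, 1.34, 0 and 3.44 at 22 °C. Every library at 30 °C lay above those at 22 °C of its genotype, and the genotypes overlapped. Ccl7 rose by 3.22 in Cre-labelled fat and 3.04 in controls (limma adjusted p = 0.000704 and 0.000745). Ccl12, the third CCR2 ligand of mice, was below the filter, with means of 7.59 ± 6.17 in Cre-labelled and 8.92 ± 5.49 in control fat at 30 °C, and 2.59 ± 2.22 in Cre-labelled and 5.26 ± 7.52 in control fat at 22 °C.

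Ccl8, which in mice acts through CCR8, read 58.9, 26.6, 33.8 and 26.6 in Cre-labelled fat at 30 °C, against 19.6, 8.58, 18.9 and 14.2 in controls. At 22 °C it read 9.17, 5.55, 7.67 and 2.58 in Cre-labelled and 4.06, 1.31, 0.987 and 1.67 in control libraries. The genotypes were separate at 30 °C and overlapped at 22 °C, and the temperatures were separate in each genotype. Ccl8 rose with temperature by 2.40 in Cre-labelled fat and 2.48 in controls (limma adjusted p = 0.000558 and 0.000278). Like Ccl2 and Ccl7, Ccl8 passed the filter through its 30 °C values. The genotype difference was 1.18 at 30 °C and 1.27 at 22 °C, with limma adjusted p of 0.0845 and 0.0719. Each passed the threshold in some alternatives, among them the replicate block and the fit without the 2 sparsest libraries. In control library 1 at 22 °C, the value of 3 reads is about 11.79, which is more than its Ccl8 and Ccl7 and about its Ccl2.

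Ccl11 and Ccl24 attract eosinophils through CCR3. Ccl11 read 406, 397, 448 and 384 in Cre-labelled fat at 30 °C, against 280.1, 377, 312 and 257 in controls. At 22 °C it read 198, 287, 249 and 204 in Cre-labelled and 291, 240.3, 207 and 222 in control libraries. All 4 Cre-labelled libraries at 30 °C lay above the other 12. With temperature Ccl11 rose in Cre-labelled fat by 0.81 (SE 0.15, limma adjusted p = 0.000568), and in controls the difference was 0.35 (limma adjusted p = 0.0612). The interaction was 0.46 with an adjusted p of 0.444 in limma, so the temperature effects were not shown to differ. The genotype difference was 0.43 at 30 °C (limma adjusted p = 0.068). It passed the threshold in some alternatives, among them quantile normalization, the 30 °C groups alone and the fit without the 2 sparsest libraries. Ccl24, below the filter, averaged 10.6 ± 4.63 in Cre-labelled and 8.93 ± 4.08 in control fat at 30 °C, and 6.81 ± 1.92 in Cre-labelled and 3.89 ± 1.74 in control fat at 22 °C.

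Neutrophil attractants, the CXCR2 ligands Cxcl1, Cxcl2, Cxcl3 and Cxcl5, are close relatives, so counts of one may hold reads of another. Cxcl1 read 23.9, 18.8, 45.9 and 39.5 in Cre-labelled fat at 30 °C and 5.29, 3.66, 5.17 and 3.87 at 22 °C. In controls it read 14.6, 9.57, 28.0 and 19.6 at 30 °C and 0, 1.35, 3.15 and 0.879 at 22 °C. The temperatures did not overlap in either genotype. The rise was 2.52 in Cre-labelled fat and 3.10 in controls (SE 0.46 in both, limma adjusted p = 0.000599 and 6.94e-05). Cxcl1 passed the filter through its 30 °C values, so a difference was built into its selection. The genotype difference was 0.81 at 30 °C and 1.40 at 22 °C (limma adjusted p = 0.286 and 0.062). At 22 °C it passed the threshold without the mean trend, with the replicate block and without control library 3 at 22 °C. The control values at 22 °C were at or below about the value of 3 reads, which was 2.52 to 11.79 in those libraries. That difference therefore rests on few reads. Cxcl2, below the filter, read 11.6, 12.8, 11.9 and 18.2 in Cre-labelled and 7.19, 5.16, 15.0 and 10.00 in control fat at 30 °C. In Cre-labelled fat at 22 °C it read 0.998, 1.39, 1.18 and 1.92, and in controls it is listed at 0 in all 4 libraries. The genotypes of Cxcl2 overlapped at 30 °C. Cxcl5 and Cxcl3 were above 0 in 5 and 4 libraries, all at 30 °C.

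A kappaB-type sequence stood upstream of 3 of these genes. GGANNTTCC (or its reverse complement, GGAANNTCC) was found in the 250 bases before the start in 5 of 28 windows of the 22 members matched in the promoter table, against 3.59% of 32851 windows (1178), and TTCCNNGAA in 0 of 28, against 4.06% (1333). The 5 matches are shown with up to 12 bases to each side, with the match in capitals, because NF-κB, which binds such sites, is known to switch on several of these genes. They were found by letters alone, so a match is not a binding site.
Cxcl1 (chr5:90891163-90891195, plus strand): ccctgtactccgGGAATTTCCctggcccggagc
Cxcl2 (chr5:90903791-90903823, plus strand): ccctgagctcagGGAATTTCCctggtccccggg
Cxcl3 (chr5:90786017-90786049, plus strand): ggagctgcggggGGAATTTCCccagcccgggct
Cxcl10 (chr5:92349027-92349059, minus strand): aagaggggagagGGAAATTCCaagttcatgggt
Ccl12 (chr11:82101816-82101844, plus strand): taaaagtcagatGGAACTTCCaggggagc
Cxcl1, Cxcl2 and Cxcl3 hold the same 9 letters, GGAATTTCC. Cxcl1 and Cxcl10 were tested and rose with temperature, but Cxcl1 passed the filter through its 30 °C values. A difference was thus built into its selection. The other 3 were below the filter. Of 15 NF-κB pathway and feedback genes, 3 rose in Cre-labelled fat at 30 °C and 3 at 22 °C, where 5.65% and 5.51% of all genes rose. At 30 °C these were Nfkbiz, an inducible nuclear cofactor, by 0.83, the subunit Rela by 0.34 and the adhesion molecule Icam1 by 0.55 (limma adjusted p = 0.0152, 0.0445 and 0.0495). With temperature 8 rose and 1 fell in Cre-labelled fat, and 9 rose and 1 fell in controls. The shares of all genes were 15.0% rising and 17.7% falling in Cre-labelled fat, and 22.9% and 22.7% in controls.

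Among ligands of T cells and dendritic cells, Ccl22, which draws cells through CCR4, read 33.6, 21.2, 26.8 and 28.1 in Cre-labelled fat at 30 °C, against 20.8, 13.1, 6.07 and 17.9 in controls. Libraries at 22 °C gave 12.3, 7.21, 4.91 and 3.95 in Cre-labelled and 0, 5.44, 0 and 4.24 in control libraries. The genotypes were separate at 30 °C and overlapped at 22 °C, and the temperatures were separate in each genotype. Like Ccl2, Ccl22 passed the filter through its 30 °C values. It rose with temperature by 1.90 in Cre-labelled fat (SE 0.60, limma adjusted p = 0.0212) and 2.56 in controls (SE 0.60, limma adjusted p = 0.00248). That call was lost in 3 of 27 alternatives in Cre-labelled fat, among them without Cre-labelled library 4 at 22 °C or library 1 at 30 °C, and in 1 in controls. Ccl17, its partner ligand, was below the filter and is listed at 0 in all controls at 22 °C and in 3 of 4 Cre-labelled libraries there.

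Ccl5, an attractant made by T and NK cells, averaged 48.3 ± 7.50 in Cre-labelled and 26.9 ± 8.89 in control fat at 30 °C, and 25.9 ± 7.23 in Cre-labelled and 17.8 ± 14.8 in control fat at 22 °C (SD, n = 4 each). It passed the test in none of the 5 comparisons of the main fit, with a genotype difference of 0.86 at 30 °C (95% interval -0.02 to 1.75, limma adjusted p = 0.208). The genotypes did not overlap at 30 °C, with 38.8 to 57.0 in Cre-labelled and 18.6 to 36.6 in control fat, and overlapped at 22 °C. The difference at 30 °C passed the threshold with the 30 °C groups alone and without the 2 sparsest libraries. At 22 °C the genotype difference was 0.79 (limma adjusted p = 0.257). It passed there without the 2 sparsest libraries and without control library 1 at 22 °C. Ccl3 and Ccl4, overlapping genes for inflammatory CC ligands, averaged 11.1 ± 6.61 and 7.14 ± 4.33 in Cre-labelled fat at 30 °C, against 3.44 ± 1.93 and 4.38 ± 3.80 in controls, and both were under 1 in the means at 22 °C. Ccl19, which guides dendritic cells and T cells through CCR7, was below the filter and read 3.27, 2.80, 23.8 and 32.0 in Cre-labelled fat at 30 °C, against 0, 3.63, 6.69 and 1.61 in controls. The B cell attractant Cxcl13 averaged 6.92 ± 1.63 in Cre-labelled and 4.66 ± 2.38 in control fat at 30 °C, and 2.23 ± 1.18 in Cre-labelled and 2.14 ± 1.80 in control fat at 22 °C. Xcl1, which draws dendritic cells through XCR1, averaged 3.56 ± 2.01 in Cre-labelled and 1.21 ± 0.360 in control fat at 30 °C, and 2.74 ± 3.11 in Cre-labelled and 1.81 ± 1.63 in control fat at 22 °C. Both were below the filter. Lymph node stroma markers summed to at most 3.81 in any library.

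Cxcl12, the CXCR4 ligand that retains stem and immune cells, missed the threshold between genotypes. It read 2977, 2831, 3250.1 and 2905 in Cre-labelled fat at 30 °C, against 2248, 2052, 2394 and 1903 in controls. The 22 °C values were 2786, 1812, 3285 and 3007 in Cre-labelled and 2496, 3258, 2479 and 2386 in control libraries. At 30 °C the groups did not overlap, and at 22 °C they did. The difference was 0.48 at 30 °C (SE 0.15, limma adjusted p = 0.0517) and 0.01 at 22 °C (95% interval -0.31 to 0.34, limma adjusted p = 0.969). The gene passed at 30 °C under alternatives that include a pseudocount of 5, quantile normalization and the 30 °C groups alone. Its scavenging receptor Ackr3 fell with temperature by 2.05 in Cre-labelled fat and by 2.53 in controls (limma adjusted p = 4.29e-05 and 3.05e-06).

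Cxcl14, a ligand of unsettled receptor that thermogenic brown fat of mice is known to secrete, read 399, 292, 245 and 385 in Cre-labelled fat at 30 °C and 131, 192, 208 and 177 at 22 °C. In controls it read 268, 262, 345 and 173 at 30 °C and 195, 209, 200.4 and 166 at 22 °C. The temperatures were separate in Cre-labelled fat and overlapped in controls. Cxcl14 rose in Cre-labelled fat by 0.89 (SE 0.20, limma adjusted p = 0.0031). The control difference was 0.40 with a 95% interval of -0.02 to 0.83 and a limma adjusted p of 0.113, and the interaction was 0.48 (limma adjusted p = 0.606).

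Ccl27a, Ccl27b and Ccl25, which guide lymphocytes to skin and gut, were lower at 30 °C than at 22 °C in controls. Ccl27a and Ccl27b are near-identical copies of the CCR10 ligand, and their reads may be split between them. Ccl27a read 97.1, 74.1, 79.1 and 73.4 in Cre-labelled fat at 30 °C and 148, 106, 112 and 116 at 22 °C. In controls it read 71.0, 82.9, 93.7 and 77.3 at 30 °C and 170.4, 204, 159 and 138 at 22 °C. The temperatures did not overlap in either genotype. It fell by 0.57 in Cre-labelled fat (SE 0.16, limma adjusted p = 0.0103) and by 1.03 in controls (SE 0.16, limma adjusted p = 8.27e-05).

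Ccl27b read 25.9, 15.6, 14.5 and 15.6 in Cre-labelled fat at 30 °C, and 16.9, 11.9, 13.9 and 23.0 at 22 °C. In controls it read 22.5, 6.53, 10.3 and 17.8 at 30 °C and 30.8, 26.0, 31.9 and 25.5 at 22 °C. The temperatures overlapped in Cre-labelled fat and not in controls. The control difference of Ccl27b was -1.08 (SE 0.34, limma adjusted p = 0.0159), lost in 1 of 27 alternatives, without control library 2 at 30 °C (adjusted p 0.0565). Ccl25, the CCR9 ligand of gut and thymus, read 49.8, 23.9, 36.2 and 29.3 in Cre-labelled fat at 30 °C and 46.5, 42.6, 49.0 and 57.7 at 22 °C. In controls the values were 22.1, 35.8, 27.3 and 31.8 at 30 °C, against 64.8, 42.8, 56.4 and 55.4 at 22 °C. Here too the temperatures overlapped in Cre-labelled fat and not in controls. Ccl25 fell in controls by 0.89 (SE 0.23, limma adjusted p = 0.0049). Ccl28, another CCR10 ligand, averaged 8.53 ± 2.05 in Cre-labelled and 15.4 ± 4.86 in control fat at 30 °C, and 12.8 ± 4.31 in Cre-labelled and 9.32 ± 2.95 in control fat at 22 °C, and passed no test.

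**Figure D4:**
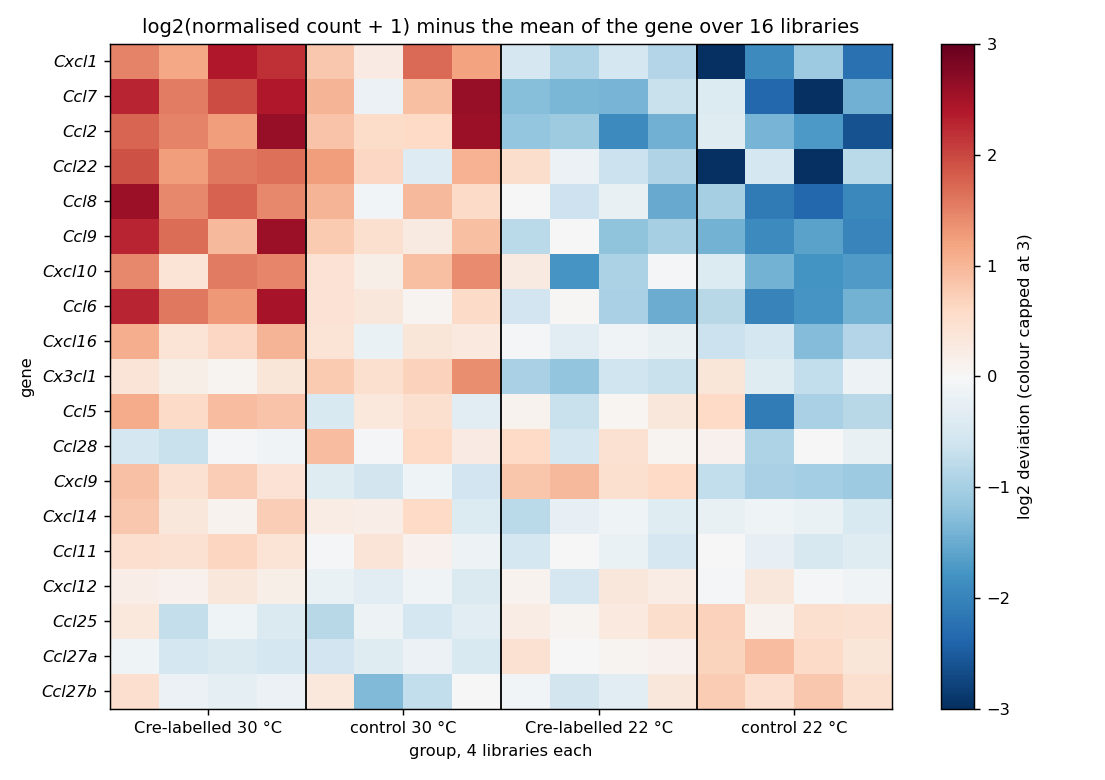
Heat map of the 19 tested ligands (rows) in the 16 libraries (columns, grouped by Cre label and temperature), coloured by the log2 deviation of each gene from its mean. Most rows are higher in the 8 libraries at 30 °C, the rows of Ccl27a, Ccl27b and Ccl25 are lower at 30 °C in controls, and Cxcl9 is higher in the 8 Cre-labelled libraries.

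Besides the Cxcl9 site, 3 peaks had a ligand as nearest gene. The peak of Ccl2 lay at chr11:82022592-82022772, 12895 bases upstream, with score 7.15 (rank 642). That of Ccl27a lay at chr4:41772091-41772271, 1920 bases downstream of the start, in exon 3 of 5 of a non-coding transcript, with score 5.54 (rank 1094). That of Cxcl3, at chr5:90789513-90789693 and 3502 bases downstream of the start, had the lowest score of the list, 4.11. Within 10 kb of the gene, 3 of 31 ligands had a peak (9.68%), against 11.23% of 24021 located genes, and within 50 kb 9 had one (29.03%), against 23.64%. Of the members with a peak, Cxcl9 rose in Cre-labelled fat at both temperatures. Ccl2 and Ccl27a passed no genotype test in the main fit, and Cxcl3 was not tested. The part of BCL6 binding in any genotype difference was not tested. The genotype difference of Ccl27a was -0.007 at 30 °C and -0.47 at 22 °C (limma adjusted p = 0.986 and 0.0624), and the genotypes overlapped. At 22 °C Ccl27a fell in Cre-labelled fat under median scaling, without control library 4 at 22 °C and without Cre-labelled library 1 at 22 °C.

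Chemokine receptors sit on the responding cells. Of 10 chemokine receptors tested, 0 rose in Cre-labelled fat at 30 °C and 1 at 22 °C, where 5.65% and 5.51% of all genes rose. With temperature 3 rose and 1 fell in Cre-labelled fat, and 5 rose and 1 fell in controls. All genes rose in 15.0% and fell in 17.7% of cases in Cre-labelled fat, and in 22.9% and 22.7% in controls. Ackr1, an atypical receptor that presents chemokines on vessels, rose in Cre-labelled fat at 30 °C by 1.23 (limma adjusted p = 0.0291). The platelet chemokine Pf4 rose with temperature by 0.79 in Cre-labelled fat and 0.92 in controls (limma adjusted p = 0.00275 and 0.000618). Of 7 inflammatory cytokines tested, 0 rose in Cre-labelled fat at 30 °C and Ltb rose at 22 °C by 1.61 (limma adjusted p = 0.00645), while 4 rose with temperature in Cre-labelled fat and 5 in controls.

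Some markers of other cells also passed the test. Between Cre-labelled and control fat 5.65% of all genes rose and 6.85% fell at 30 °C, and 5.51% rose and 4.69% fell at 22 °C. A list with 0 or 1 call is not read as a change of that cell type. In Cre-labelled fat 3 of 10 endothelial markers rose at 30 °C and 4 at 22 °C, and Lrrn4, the 1 of 5 mesothelial markers tested, rose by 2.67 at 30 °C and 2.88 at 22 °C (limma adjusted p = 9.85e-07 and 7e-07). The other 4, Msln, Upk3b, Wt1 and Krt19, had means of at most 0.974 in any group. Of 12 brown adipocyte markers 3 fell at 30 °C and 2 at 22 °C, among them Ucp1, by 1.68 and 0.94 (limma adjusted p = 0.00028 and 0.0227). Of 10 progenitor and fibroblast markers 1 rose at each temperature. Of 6 dendritic cell markers tested 1 rose at 30 °C and 0 at 22 °C, of 4 B cell markers 1 and 2, of 5 monocyte and neutrophil markers 0 and 1, of 4 lymphatic markers 0 and 1, and of 8 mural markers 2 and 0. The mast cell marker tested, Kit, and 3 erythrocyte and platelet markers did not pass. Between temperatures 7 brown adipocyte markers fell in Cre-labelled fat and 8 in controls, beside 17.7% and 22.7% of all genes. Of 12 skeletal muscle markers, limma called 0 between genotypes, and 5 rose with temperature in controls, where 22.9% of all genes rose. The part of these cell types in the ligands' differences was not tested.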

How the data were processed

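Per the labels' protocols, RNA was made into stranded polyA libraries read as single reads. The authors used kallisto on mm10 for counting and DESeq2 for scaling, per the submitters' processing notes, and the deposited values are a normalised signal per gene. Dividing out library size hides a change in total RNA. Between 47.5% and 72.7% of low values lay within 0.1 of a multiple of the library's smallest common step, so whole reads were not recovered. The authors' peak list was annotated with HOMER on mm10, per the file headers, and aligned with Bowtie2, per the submitters' processing notes. The deposited score was used to rank peaks. Neither the peak threshold nor the versions of these tools were stated there.

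Genes averaging 10 or more across the 16 libraries were kept (13176 of 24116). log2(value + 1), with a pseudocount of 1, was fitted with 1 mean per group in limma 3.58.1 (R 4.3.3), with a mean trend, prior degrees of freedom 4.83 and residual 12, and p-values were Benjamini-Hochberg adjusted. The fit was tested on simulated data. The groups and comparisons come from the titles. All tested ligands were named, those past 0.05 or among the 6 highest means with every library, and up to 3 genes of other lists by adjusted p at 30 °C; 1 such gene is not reported here. Members and lists were chosen with earlier results of these data known. Promoter sequence and gene positions come from RefSeq GRCm38.p6. Other ChIP samples were not analysed here. Alternatives covered the pseudocount, filter, scaling, trend, groups fitted, replicate block, muscle covariate and left-out libraries.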

Additional observations from a re-analysis of the deposited data

Results flagged for a closer look

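In 4 of 76 groups of 4 libraries screened, 1 library lay apart from the other 3 by more than Dixon's 95% critical value for its share of the range; chance flags about 1 in 20 groups. Ccl2 was 98.42 in control library 4 at 30 °C, against 23.56 to 29.43 in the others. Ccl27b was 25.89 in Cre-labelled library 1 at 30 °C, against 14.46 to 15.61. Cxcl10 was 35.87 in Cre-labelled library 2 at 30 °C, against 74.7 to 81.12. Cxcl12 was 3258 in control library 2 at 22 °C, against 2386 to 2496.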

How the results depend on the processing

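The number of ligands called between genotypes depended on the settings. At 30 °C it was 3, and became 5 with a pseudocount of 5, 7 under quantile normalization, 7 with the 2 groups fitted alone and 8 without the 2 sparsest libraries, with a range of 3 to 6 when each library was left out. At 22 °C it was 2, and became 1 under quantile normalization or with the groups alone and 4 without the mean trend. It became 5 both with the muscle covariate and when the 2 sparsest libraries were dropped. Single left-out libraries gave a range of 1 to 5. Calls over all genes moved too. At 30 °C 954 genes rose and 1219 fell under quantile normalization, and 1123 and 1289 with the groups alone. At 22 °C these were 453 and 444, and 276 and 249. Without the mean trend 663 rose and 543 fell at 22 °C, and with the muscle covariate 686 and 590. Between temperatures, a mean of at least 50 left 9 ligands tested, of which 6 of the 14 called in controls and 7 of the 13 in Cre-labelled fat were among the calls; fewer genes were then tested. Left-out libraries gave 13 to 16 in controls and 12 to 14 in Cre-labelled fat. The interaction gave 0 calls under each alternative run, and the groups alone could not be used for it. Cxcl9 between temperatures in Cre-labelled fat turned to 0.036 under quantile normalization. The cause of the other shifts was not tested. Same-numbered libraries correlated between -0.48 and 0.171, which gave no sign that the numbers pair the samples but cannot exclude a pairing. The replicate block gave 4 calls at 30 °C and 4 at 22 °C, and 14 between temperatures in controls and 13 in Cre-labelled fat. Depth limits ligands near the value of 3 reads, which was 11.79 in the shallowest library.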
